A study of Drosophila melanogaster with 2 samples.

Results

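The segmentation genes are the regulators that divide the Drosophila embryo into repeated units along its long axis. The 31 members were listed by name, with earlier results of these data known, although no peak value enters the rule. All 31 were found among the 13945 protein-coding genes on the 6 main chromosome arms (h is listed as hry in Ensembl). They comprised 9 maternal and gap genes, 11 pair-rule genes and their regulators, 6 segment polarity genes and 5 head genes. The data were chromatin immunoprecipitation followed by sequencing for CG4854, a zinc finger protein, from 2 biological replicates (numbered 2 and 3) of whole embryos. Both replicates came from a transgenic line that carries CG4854 with eGFP at its C terminus, were collected at 0 to 24 hours of age from males and females together, and were precipitated through the GFP tag. Both belong to 1 group, so conditions could not be compared, and untagged embryos or mock precipitations were not analysed here. The promoter of the transgene and its level relative to the native protein were not stated in the labels.

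In the segmentation cascade, maternal factors and gap genes set up broad domains, pair-rule genes turn these into stripes, and segment polarity genes fix the boundaries of each segment through the Wingless and Hedgehog signals. The head is patterned by a separate set of gap-like genes. Many of these genes are controlled by enhancers that lie several kilobases from the start site, within introns or in the DNA between genes. Their transcription is often limited to part of the embryo or to some of its stages. The collection window spans all of embryonic development, so a summit in a small group of cells and weak occupancy in many cells cannot be told apart.

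Each deposited list held 30000 candidate summits. Of the pooled list, 3106 peaks were deposited as passing an irreproducible discovery rate (IDR) cutoff. That rate scores whether a peak keeps its rank from replicate to replicate. By signal, these 3106 were the strongest peaks of the pooled list. The pooled list was labelled as peaks and background put into the IDR step, so a candidate outside the IDR set may be background. Signal is the peak caller's own score as the authors deposited it, and in the IDR set it ran from 95.2 to 1775.6, with a median of 146. A summit within 500 bp of a transcription start site (TSS) of a member was counted as a promoter summit. A summit farther than 500 bp from every TSS was given to the gene with the nearest TSS and is called distal. The number of reads behind the lists is unknown here, so intervals cover counting error over genes or summits only.

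CG4854-eGFP IDR summits at segmentation genes lay mostly away from the start sites: 15 of 17 were distal, against 1419 of the 3106 in the whole set. Neither this split nor the distal shares below were adjusted for the length of DNA nearest to each gene's TSSs. That length had a median of 21.4 kb at members, against 3.19 kb over all protein-coding genes. Of the 31 members, 2 had an IDR summit at a promoter, bcd and cnc (6.45%, exact Clopper-Pearson 95% interval 0.791 to 21.4). Over all protein-coding genes the share was 15.8%, which lies inside that interval. Of the 2202 protein-coding genes with a promoter IDR summit, 57.4% had only summits that also lay within 500 bp of another gene's TSS. The bcd and cnc summits were not shared in this way. Distal IDR summits were nearest to 10 members (32.3%, 95% interval 16.7 to 51.4), against 7.06% of all protein-coding genes. These were h, slp1, slp2, ftz-f1, D, wg, oc, ems, croc and cnc, with 15 distal summits between them. By both rules together, 11 members had an IDR summit and 20 had none, and 21% of all protein-coding genes had 1 or more.

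**Figure D1:**
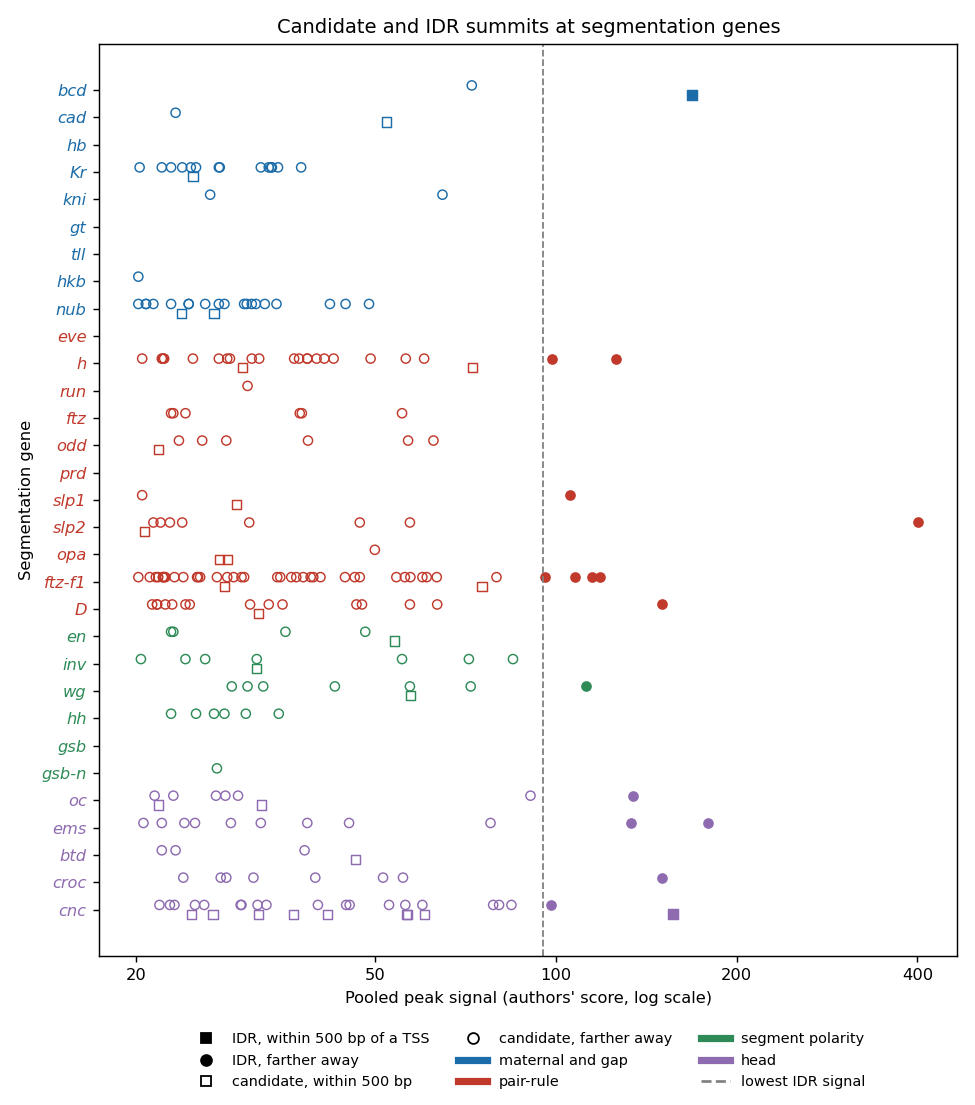
Pooled signal (authors' score, log scale) of every candidate summit at each segmentation gene, coloured by class. Squares lie within 500 bp of a TSS and circles farther away, filled symbols are in the IDR set, and the dashed line marks the lowest IDR signal, 95.2. Filled circles stand at pair-rule and head genes and at wg, and the filled squares are bcd and cnc.

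In the full pooled list, which can hold background, candidates lay at promoters of segmentation genes in a share near that of all genes. A pooled candidate lay within 500 bp of a TSS at 17 of the 31 (54.8%, 95% interval 36 to 72.7), against 50.3% of all protein-coding genes. Among the 10000 strongest pooled candidates it was 8 of the 31, against 35% of all genes. In the list of replicate 2 it was 11 of the 31, against 50.1%, and in that of replicate 3 it was 15, against 52.6%. Of the 30 promoter candidate summits at members, 2 were in the IDR set, and of all promoter candidates 19.7% were. The 15 members with a promoter candidate outside the IDR set had a strongest signal between 20.7 and 75.4, with a median of 32, while the whole pooled list had a median of 33.0. At 5 of these 15, both replicates held a candidate within 100 bp, and the matching share over all genes is not given here. No candidate of any kind was assigned to hb, gt, tll, eve, prd or gsb.

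Among the maternal and gap genes, bcd alone had an IDR summit. It encodes the homeodomain protein whose mRNA is laid down at the anterior pole of the egg. The peak lay on 3R from 6759599 to 6759764, with its summit at 6759649, 183 bp upstream of the single annotated TSS (bcd, minus strand, 6755842 to 6759466) and 2944 bp from the TSS of Ama. Its signal was 82.0 in replicate 2, 91.4 in replicate 3 and 168.6 in the pooled list, where it ranked 1183. Both replicates placed it among their 3106 strongest candidates, at ranks 1403 and 1062, and the replicate signals differed by 0.16 on the log2 scale.

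The other promoter IDR summit was at cnc, a head gene that encodes a basic leucine zipper protein and has 10 annotated TSSs. It lay in an intron of cnc on 3R from 23189905 to 23190308, 312 bp downstream of a TSS, so it lies outside a window of 250 bp. Its signal was 85.6 in replicate 2, 70.3 in replicate 3 and 156.6 in the pooled list. The bases within 50 bp of these summits are shown because they are the promoter positions of the whole gene list that reached the IDR set. Sequences are from the RefSeq copy of Release 6, plus strand, at chr3R:6759599-6759699 for bcd and chr3R:23190057-23190157 for cnc. Capitals mark a match to any of 10 preset motifs. The bcd window held none of the 10, and the cnc window held TTTATG, a core bound by the homeodomain protein Caudal.
bcd: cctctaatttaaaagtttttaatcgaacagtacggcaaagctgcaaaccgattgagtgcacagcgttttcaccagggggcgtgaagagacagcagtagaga
cnc: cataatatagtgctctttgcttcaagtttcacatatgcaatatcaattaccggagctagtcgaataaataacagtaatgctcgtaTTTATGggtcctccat

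The remaining maternal and gap genes had no IDR summit by either rule. They are cad, which encodes a posterior homeodomain protein, the zinc finger genes hb, Kr and hkb, kni and tll, which encode nuclear receptor proteins, gt, a basic leucine zipper gene, and nub, a POU homeodomain gene. Over the whole class of 9 genes, bcd included, the DNA nearest to their TSSs and outside all 500 bp windows came to 178 kb. It held 0 distal IDR summits. This allows up to 1.69 summits per 100 kb by the rule of 3 counts, which is above the 1.2 per 100 kb found over all protein-coding genes, so a lower density was not detectable at this number of summits. The strongest distal candidates of the class were those of bcd (72.5), kni (64.8) and nub (48.9). The promoter candidate of cad had a signal of 52.3, with 19.3 in replicate 2 and 33.8 in replicate 3.

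Assignment to the nearest TSS left out 4 IDR summits that a maternal or gap gene flanked. A summit inside an intron of cad, on 2L at 20780930, lay 10036 bp from a TSS of cad and 6726 bp from that of Pomp, which took it. Its pooled signal was 162.4, but it stood at 35.3 in replicate 2 and 125.8 in replicate 3. A second summit near cad lay in an intron of dia (96.9). The other summits lay 16214 and 15351 bp from a TSS of kni and nearer to CG34260, with signals of 175.5 and 98.8. These positions were listed after the counts were known. Over all members, 13 IDR summits were flanked by a member but nearest to another gene. They include the summits between slp1 and slp2, which both genes flank and which are counted at the nearer of them.

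The pair-rule genes carried the strongest summit of the whole gene list. Of the 11, 5 were nearest to a distal IDR summit (45.5%, 95% interval 16.7 to 76.6), with 9 summits in all, and 0 had one at a promoter. Over all protein-coding genes these shares were 7.06% and 15.8%. The strongest of the 9 summits lay between slp1 and slp2, neighbouring forkhead genes that act as pair-rule and segment polarity regulators. The peak spanned 3832355 to 3832662 on 2L, with its summit 4314 bp upstream of the TSS of slp2 and 6851 bp downstream of that of slp1, in DNA between genes. Its signal was 187.1 in replicate 2, 204.7 in replicate 3 and 401.6 in the pooled list, and it ranked 266, 194 and 199 there. Both replicates placed it far above the other member summits, whose highest replicate value was 111.1.

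A weaker summit lay 2169 bp downstream of the TSS of slp1, beyond the end of the gene, with 38.1 in replicate 2, 71.0 in replicate 3 and 105.7 pooled. The promoters of slp1 and slp2 held pooled candidates of 29.4 and 20.7 only. The slp2 sequence is shown because it is the strongest member summit and because of the repeat it holds. The window lies at chr2L:3832476-3832576 (RefSeq, Release 6, plus strand), and capitals mark GGTCACAC, a sequence bound by the zinc finger protein M1BP.
slp2: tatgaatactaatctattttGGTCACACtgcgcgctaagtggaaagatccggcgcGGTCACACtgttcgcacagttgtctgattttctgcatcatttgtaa

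The slp2 window held GGTCACAC 2 times in the same orientation, with starts 35 bp apart, on both sides of the summit. Of the 3106 IDR windows of this length, 46 (1.48%) held the sequence on either strand, and 1 held it more than once, the slp2 window itself. This count of copies was chosen after the window had been seen. A match describes the letters in the window and does not show which protein bound there.

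The gene h encodes a basic helix-loop-helix repressor, and it had distal IDR summits on both sides. The upstream summit, on 3L at 8672700, lay 3059 bp from the nearest TSS of h, with signals of 69.5 in replicate 2, 54.7 in replicate 3 and 125.9 pooled. The downstream summit, at 8696571, lay 20616 bp from a TSS of h and 23654 bp from that of SrpRbeta, with signals of 52.6, 54.5 and 98.5. A further IDR summit in the same gap between genes (209.6 pooled) was nearer to SrpRbeta and was not counted. The h promoter had a candidate 38 bp inside the gene (72.8 pooled), which ranked 2954 in replicate 3 (53.7) and had no match within 100 bp in replicate 2.

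The nuclear receptor gene ftz-f1, whose product is the partner of Ftz, had 4 distal IDR summits, the most of any member. All lay within its introns on 3L, and their pooled signals were 118.6, 114.8, 107.7 and 96.0. In replicate 2 they stood at 72.5, 32.0, 58.3 and 50.9, and in replicate 3 at 46.4, 90.0, 45.2 and 43.2. The summit at 18789817 was thus the lowest of the 4 in replicate 2 and the highest in replicate 3. Of the 4, 3 also lay within a non-coding RNA gene, CR45939. The ftz-f1 promoter candidate of 75.4 was the strongest promoter candidate at any member outside the IDR set.

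The Sox gene D had 1 distal IDR summit, 3127 bp downstream of a TSS and beyond the end of the gene, with 51.2 in replicate 2, 98.5 in replicate 3 and 150.3 pooled. The other pair-rule genes were eve, ftz and prd, which encode homeodomain proteins, run, the zinc finger genes odd and opa, and none of these 6 had an IDR summit by either rule. Their strongest distal candidates were 62.6 at odd, 55.5 at ftz and 30.7 at run, while eve and prd had none. That of opa stood between ftz and run, at pooled rank 8110, with 23.4 in replicate 2 and 29.3 in replicate 3. The DNA nearest to ftz amounted to 40.4 kb and that nearest to eve to 7.9 kb, so these zeros rest on unequal lengths of sequence.

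**Figure D2:**
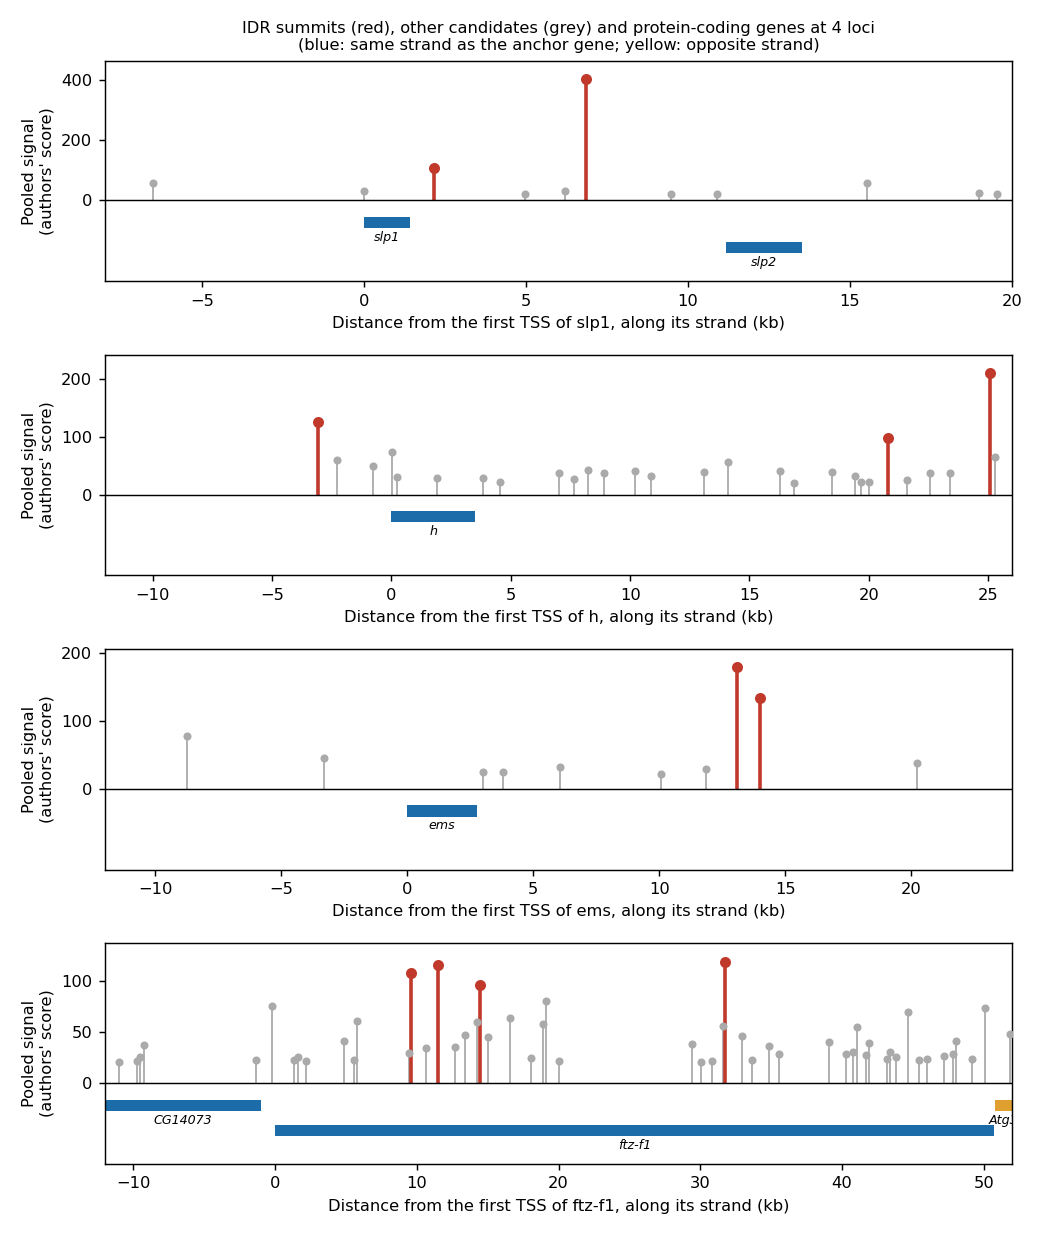
Pooled signal of summits (vertical axis, authors' score) against distance in kb from the first TSS of slp1, h, ems and ftz-f1, along the strand of that gene. Red stems are IDR summits, grey stems other candidates, and boxes are protein-coding genes. The summit of 401.6 stands between slp1 and slp2, both ems summits lie downstream of the gene, and the 4 ftz-f1 summits lie inside it. The red stem near 25 kb in the h panel was nearest to SrpRbeta.

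Of the segment polarity genes, wg alone had an IDR summit. It encodes the Wnt ligand of the embryonic segment, and the summit lay 11003 bp upstream of its TSS on 2L, at 7296156, in the gap towards Wnt4. Its signal was 55.7 in replicate 2, 53.1 in replicate 3 and 112.4 pooled, a log2 difference (replicate 3 minus 2) of -0.07. The wg promoter held a candidate of 57.4. The wg window, at chr2L:7296106-7296206 (RefSeq, Release 6, plus strand), is shown as the strongest distal position of its class. It had a GC content of 21.8% and held the Caudal core TTTATG, in capitals.
wg: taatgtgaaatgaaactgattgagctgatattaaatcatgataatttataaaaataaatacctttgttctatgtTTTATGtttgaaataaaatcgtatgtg

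The neighbouring homeodomain genes en and inv mark the posterior part of each segment, hh encodes the Hedgehog ligand, and gsb and gsb-n encode paired-type regulators. None of the 5 had an IDR summit by either rule. The strongest candidate among them lay inside the inv gene, 24795 bp from a TSS of inv, with 44.1 in replicate 2, 43.5 in replicate 3 and 84.9 pooled, at rank 3702. The en promoter had a candidate at its TSS with 24.6 in replicate 2, 32.7 in replicate 3 and 53.9 pooled. The strongest candidates of hh and gsb-n were 34.6 and 27.3.

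Head genes had the highest share of members with a distal IDR summit, at 4 of 5 (80%, 95% interval 28.4 to 99.5), with 5 summits. The DNA nearest to their TSSs was also the widest, with a median of 32.4 kb. It was 22.6 kb at pair-rule, 21.1 kb at segment polarity and 13.5 kb at maternal and gap genes. All 5 head genes had 20 to 40 kb. Of all protein-coding genes 7.06%, and of those with 20 to 40 kb 19.8%, had a distal IDR summit. The homeodomain gene ems had 2, downstream of the gene on 3R at 13914943 and 13915853, which is 13090 and 14000 bp from its TSS, while Art9, on the other side, has its TSS 28517 and 27607 bp away. The first stood at 69.1 in replicate 2, 111.1 in replicate 3 and 179.3 pooled, and the second at 67.7, 60.5 and 133.6. The ems promoter had no candidate in the pooled list. The sequence of the stronger summit, at chr3R:13914893-13914993 (RefSeq, Release 6, plus strand), is shown as the strongest head gene position. It held none of the 10 motifs, so it has no capitals.
ems: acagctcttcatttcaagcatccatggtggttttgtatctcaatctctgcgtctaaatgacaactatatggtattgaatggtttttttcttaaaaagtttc

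The forkhead gene croc had a summit 11986 bp downstream of its TSS on 3L, with 43.4 in replicate 2, 100.9 in replicate 3 and 150.5 pooled. The homeodomain gene oc, also called orthodenticle, had a summit on X 6073 bp upstream of a TSS, with 73.2, 59.8 and 134.6. A further candidate near oc, 15805 bp downstream of a TSS, ranked 3326 (90.8 pooled) and was the strongest distal candidate of any member below the IDR set. It stood at 16.5 in replicate 2 and 69.5 in replicate 3, so it was high in replicate 3 alone. The distal summit of cnc (50.6, 42.7 and 98.4) lay 2077 bp upstream of a cnc TSS but in the 3' UTR of CG4467. The zinc finger gene btd had no IDR summit by either rule, and its promoter candidate had a signal of 46.5. An IDR summit of 350.9 lay 6453 bp from a TSS of btd, but 667 bp from that of nej, to which it was assigned.

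The share of members with a distal summit has to be read against how much DNA each gene was nearest to. Segmentation genes lie in wide surroundings: the DNA nearest to their TSSs and outside all 500 bp windows had a median of 21.4 kb, against 3.19 kb over all protein-coding genes. Of the 26 members with at least 10 kb, 10 had a distal IDR summit, and of all protein-coding genes with at least 10 kb, 19.6% had one. Among genes with 20 to 40 kb, 7 of 13 members and 19.8% of 954 genes had one. Among those with 10 to 20 kb, the figures were 2 of 9 and 16.1% of 1646, and with 40 kb or more 1 of 4 and 32.4% of 444. The widths were split in this way after the counts were known.

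**Figure D3:**
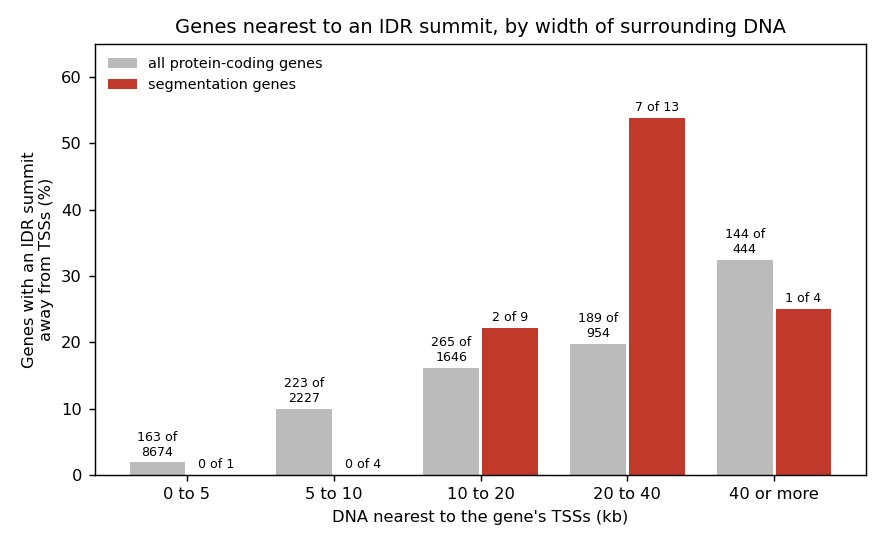
Share of genes with a distal IDR summit (vertical axis, %) by the width of DNA nearest to their TSSs (horizontal axis, kb), for all protein-coding genes in grey and segmentation genes in red, with counts above the bars. The share rises with width over all genes, from 1.88% below 5 kb to 32.4% at 40 kb or more, and members stand above all genes at 20 to 40 kb, with 7 of 13.

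Per length of DNA, the members stood above all genes, but less far than by counts of genes. They had 15 distal summits on 747.5 kb, which is 2.01 per 100 kb (exact Poisson 95% interval 1.12 to 3.31), against 1.2 per 100 kb over all protein-coding genes. The interval includes the value of all genes. Of the 15, 4 were among the 1553 strongest IDR peaks, where members had 0.535 per 100 kb and all genes 0.567. Below that rank members had 1.47 per 100 kb and all genes 0.63. Within 10 kb of the nearest TSS, members had 1.55 per 100 kb and all genes 1.53. These splits rest on few summits and have no intervals, so they do not place the difference. All summits of ftz-f1 lay below rank 1553, and members without that gene had 1.58 per 100 kb over all ranks.

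By class, the pair-rule genes had 3.38 distal IDR summits per 100 kb (95% interval 1.54 to 6.41) and the head genes 3.47 (1.13 to 8.09). Segment polarity genes had 0.631 (0.016 to 3.52) and maternal and gap genes 0, with the limit of 1.69 given above. These ranges overlap for all 4 classes, and summits of the same gene, such as the 4 at ftz-f1 or the 2 at ems, share their surroundings. Of the 9 pair-rule summits, 4 were at ftz-f1 and 1 at D, and the class density without these genes is not given here. Members had 28.4 distal candidates per 100 kb, against 18.1 over all genes. By class there were 37.9 per 100 kb at pair-rule, 33.3 at head, 21.3 at maternal and gap and 15.8 at segment polarity genes. Of the 212 distal candidates of members, 7.08% were in the IDR set, against 6.62% of all distal candidates. Over all members, the passage from candidate to IDR peak was thus near that of all distal candidates. By class it was 8.91% at pair-rule, 10.4% at head, 4% at segment polarity and 0% at maternal and gap genes. The candidate density of members also stood above that of all genes, but it has no interval, and ftz-f1 alone had 40 of the 212.

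**Figure D4:**
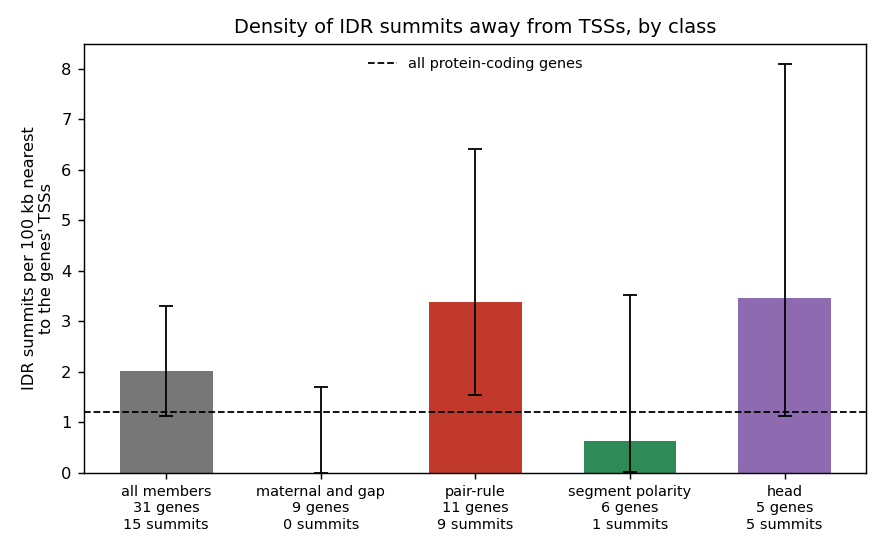
Distal IDR summits per 100 kb of DNA nearest to the TSSs (vertical axis) for all 31 members and each class, with exact Poisson 95% intervals as error bars (for maternal and gap genes, the limit of 3 counts, 1.69) and the value of all protein-coding genes, 1.2, as a dashed line. Pair-rule and head genes stand at 3.38 and 3.47, and the error bars of all classes overlap.

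The distal member summits had a lower median signal than all distal IDR summits and lay farther from the nearest TSS. The 15 distal summits had a median signal of 119, against 141 for the 1419 distal summits of the whole set, and 4 of the 15 were above that value. Their median distance from the nearest TSS was 9621 bp (2077 to 20616), against 2807 bp over all distal IDR summits. In DNA outside any annotated gene lay 10 of the 15, against 25% of all distal IDR summits. In introns lay 4 of the 15, all of them at ftz-f1, against 67.9%. Neither these shares nor the distances were adjusted for the wider surroundings of members, a median of 21.4 kb against 3.19 kb. Of the 15, 6 lay upstream of the nearest TSS and 9 downstream. In windows reaching 50 bp to each side of the 17 member summits, GC content had a median of 33.7%, and in all IDR windows 34.7%.

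Both replicates held a candidate within 100 bp of each of the 17 member summits. Of the 3106 IDR peaks, 2936 were matched in both replicates, so this agreement is not particular to members. The IDR set was the top of the pooled list by signal, and that list was called on both replicates together. Replicate 2 had 14 of the 17 among its 3106 strongest candidates, replicate 3 had 13, and 10 were there in both. The same counts over all IDR peaks are not given here, so these do not place the members against the whole set. The log2 ratio of replicate 3 to replicate 2 had a median of -0.07 and an SD of 0.63 over the 17, against -0.07 and 0.62 over the 2936 IDR peaks matched in both. The widest gaps were at the ftz-f1 summit at 18789817 (1.49), at croc (1.22), at D (0.94) and at slp1 (0.90), each higher in replicate 3. For a single summit the spread rests on 1 difference between 2 replicates and is imprecise.

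**Figure D5:**
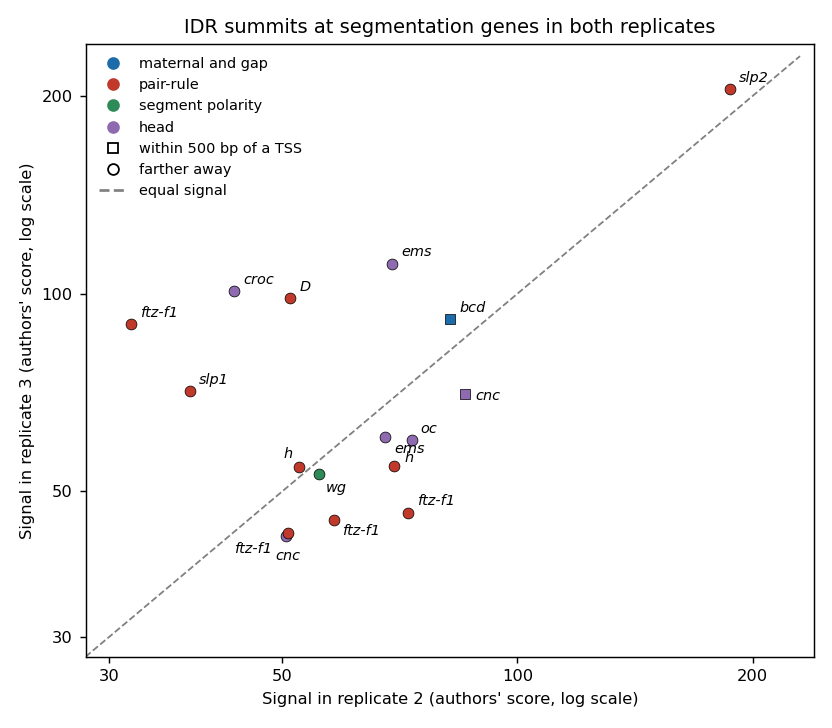
Signal in replicate 3 (vertical axis) against replicate 2 (horizontal axis), both the authors' score on log scales, for the 17 IDR summits at segmentation genes. Squares lie within 500 bp of a TSS and circles farther away, colours give the class, and the dashed line marks equal signal. The slp2 summit stands apart at 187.1 and 204.7, and ftz-f1, croc, D and slp1 summits lie well above the line.

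Of the sequence cores searched for factors of the cascade, the Caudal core alone had a match at the member summits. Searched on both strands, GGATTA (Bicoid and Orthodenticle), TTTTTTG (Hunchback), AACCACA (Runt), AAGGTCA (Ftz-F1) and CAGGTA (Zelda, an activator of the early zygotic genome) each occurred in 0 of the 17 windows. All IDR windows held these in 3.03%, 6.57%, 0.837%, 0.741% and 2.16%, so few or none would be seen in 17 windows at those shares. The Caudal core TTTATG occurred in 4 of 17 (both cnc summits, wg and slp1), against 13.1% of all IDR windows. GAGAG, bound by GAGA factor, occurred in 2 of 17, against 10.4%. The BEAF-32 core CGATA occurred in 1 of 17, against 18.1%, and TATCGATA, the DRE that contains it, in 0 of 17, against 2.64%.

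Genes that act with the segmentation genes were counted by the same rules. Of 17 maternal regulators and cofactors, 7 had a promoter IDR summit (41.2%), among them gro, which encodes the Groucho corepressor used by Hairy (460.0 pooled), hop, a Janus kinase gene (312.3), and Trl, which encodes GAGA factor (204.6). The strongest summit of this list was distal, 1524 bp from a TSS of Trl (843.8). Of 17 Wingless pathway genes, 5 had one at the promoter (29.4%), led by sgg, a kinase gene (392.7), and nkd (176.0, with no candidate within 100 bp in replicate 2), and lgs was nearest to a distal summit of 462.1 at 19100 bp. Of 11 Hedgehog pathway genes, 1 had one at the promoter, ttv (109.6), and ptc, the Hedgehog receptor gene, had distal summits of 203.3 and 171.9. Among 13 paralogs and neighbours of members, the forkhead gene fkh (431.5) and the odd relative bowl (260.7) had promoter summits. Some of these promoter summits also lay within 500 bp of a TSS of another gene: those of hop (Tim8), exu (galla-1), stau (Spn55B) and lilli (NTPase), 4 of the 7 maternal regulators and cofactors, and those of Wls (Adck5) and Apc2 (mRpS24), 2 of the 5 Wingless pathway genes. Of all 2202 protein-coding genes with a promoter IDR summit, 57.4% had only summits shared in this way. The background share of promoter IDR summits, 15.8%, is the same as for the members, and no test was run over these lists.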

How the data were processed

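The authors deposited narrowPeak lists on dm6, called per replicate, against a control, and on both replicates pooled, and an IDR set derived from them, per the accompanying text. The signal column is a score in the peak caller's scale, as deposited by the authors, and the summit offset is counted in bases from the peak start. Which aligner, peak caller and IDR threshold were used, and the read depth, is not given in the sources used here; lists on dm3 were left out.

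Start sites were those of Ensembl 115 protein-coding transcripts (BDGP6, version 54), and sequence from RefSeq (Release 6), whose arm lengths hold all peaks and genes. Coordinates count from 1. Distal summits went to the nearest TSS. Density is summits per 100 kb of the DNA nearest to a gene's TSSs and over 500 bp from any TSS, with ties shared. Replicate summits matched within 100 bp. Members with a summit were named with all 3 signals, other members with their strongest candidate. The members, classes, lists and motifs were chosen with earlier results of these data known. No test was run: 1 group of 2 samples allows none. Shares have Clopper-Pearson intervals (SciPy 1.17.1). Assignment was checked on planted summits. The tools were Python 3.11.15 and pandas 2.3.3. Alternatives covered windows, peak sets, replicates and TSS types.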

Additional observations from a re-analysis of the deposited data

How the results depend on the processing

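Counts were held to 1.5 times the main count and the density to its 95% interval: of 93 alternative values, 77 stayed within these limits and 16 moved. Counts that moved may still lie inside the intervals given with them. With a 250 bp window, promoter IDR summits were at 1 member and 0 head genes (cnc was lost). With the 1553 strongest IDR peaks, distal summits were at 4 members (4 summits, 0.535 per 100 kb), 2 pair-rule, 0 segment polarity and 2 head genes. With distal summits within 10 kb only, 8 summits, 0 segment polarity and 2 head genes remained in the count. Without nub, D and ftz-f1, 3 pair-rule genes had a distal summit, and without ftz-f1, added after the data were seen, 11 summits gave 1.58 per 100 kb. Promoter candidates fell to 8 members among the 10000 strongest. Over all protein-coding genes, the 250 bp window gave 13% with a promoter IDR summit. The 1553 strongest IDR peaks gave 3.93% with a distal summit and 0.567 per 100 kb. Distal summits within 10 kb came to 1.53 per 100 kb over all genes, against 1.55 at members. The 10000 strongest candidates gave 35% of all genes with a promoter candidate.

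Leaving out a replicate, by taking the 3106 strongest candidates of the other, gave 2 to 3 members with a promoter summit, 8 to 11 with a distal summit, 13 to 14 distal summits and 1.74 to 1.87 per 100 kb. By class, promoter summits were at 0 to 1 pair-rule genes (h without replicate 2) and distal summits at 1 to 2 segment polarity genes (inv without replicate 2). Promoter candidates were at 15 members without replicate 2 and at 11 without replicate 3. Over all protein-coding genes, the same lists gave 15.3 to 16.5% with a promoter summit and 6.93 to 7.16% with a distal summit. They gave 1.16 to 1.2 distal summits per 100 kb, and promoter candidates at 52.6% of all genes without replicate 2 and 50.1% without replicate 3. The cause of these shifts was not tested. No paired analysis was possible because there is 1 group. Read depth is unknown, so precision beyond counts of summits cannot be given.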
